A study of Caenorhabditis elegans with 52 samples.

Results

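The piRNAs 21ur-2545, 21ur-73, 21ur-5059 and 21ur-3375 of Caenorhabditis elegans were followed through 42 small RNA libraries of whole adult animals. They are 4 of 14680 piRNAs in the table and were listed by symbol as abundant piRNAs that are lost slowly once piRNA production stops. By this description the list was selected on measured levels and decay in the depletion time courses, though the exact values used were not recorded, so every time-course value below is a description and carries no test. The courses bore the name out only in part. In the strain with wild-type disl-2, 21ur-5059 was lost about as fast as the median piRNA, and in both strains other abundant piRNAs had shallower slopes than any of the 4.

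In the time courses, TOFU-5 carried an auxin-inducible degron, gfp::aid::tofu-5(how48) I, together with sun-1p::mcherry::tirI I. This transgene supplies the TIR1 adaptor for degradation from the sun-1 promoter, which is active in the germline. The same strain was studied with and without disl-2(how27) III, and both were sampled after 0, 2, 4, 6 or 12 h of the auxin IAA at 4 mM. The 2 strains are called the disl-2(how27) degron strain and the degron strain.

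The other 22 libraries were of untreated day 1 adults. They came from disl-2(how27) III, disl-2(tm5337) III and a disl-2 isogenic control, from henn-1(tm4477) III with and without disl-2(how18) III, and from parn-1(tm869) V with and without disl-2(tm5337) III. A further experiment held a disl-2(how27) III double mutant with pup-1(how20) III, a disl-2(tm5337) III double mutant with pup-1(how50) III, pup-1(tm1021) III and a pup-1 paired control. The column headers call the pup-1 paired control N2 and give no strain name for the isogenic control. The 2 double mutants are called the pup-1 disl-2(how27) and pup-1 disl-2(tm5337) doubles. The pup-1 allele of each differs from that of the single mutant, so a difference between double and single mutant cannot be told apart from a difference between pup-1 alleles. Every group had 2 libraries. The labels name no separate cultures behind them, so the spread that enters each p-value is that between libraries and could be technical.

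piRNAs are small RNAs of the germline that guide the Piwi protein PRG-1 to its targets. In this species most are transcribed one by one from short genes on chromosome IV, and TOFU-5 is a factor of that transcription. The precursor is trimmed at its 3′ end by the nuclease PARN-1 and methylated there by HENN-1. PUP-1 is a poly(U) polymerase that adds uridines to RNA 3′ ends, and DISL-2 is the homolog of DIS3L2, a 3′ to 5′ exonuclease known for degrading uridylated RNAs. When TOFU-5 is depleted, few piRNAs should be made anew, so a fall in level is read as decay of those already present. New production during the courses was not measured, so slopes and half-lives below are net changes in RPM. Because whole animals were sequenced, fewer germline cells and less piRNA per cell cannot be told apart. The piRNA table holds no mRNA, so neither the mutations nor the depletion of TOFU-5 could be checked from it.

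All 4 genes lie on chromosome IV and all 4 products are 21 bases long, so their levels can be set side by side without a length correction. Their sequence names place them in 4 different clones. In the RefSeq WBcel235 gene table, 21ur-73 (Y73F8A.71) lies inside pkd-2, a polycystin gene, and 21ur-3375 (Y105C5B.151) lies inside lgc-19, a gene of the ligand-gated ion channel family. The genes 21ur-2545 (Y41E3.211) and 21ur-5059 (Y105C5A.145) lie in no coding gene, and their nearest coding genes are Y41E3.1 and daf-38. The authors' class is Spermatogenic for 21ur-5059 and none for the other 3.

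Libraries held between 8807176 and 52798564 reads, and levels are in RPM, which are reads scaled to library depth by the authors. A level of 0 would allow up to 3 reads, which is 0.0568 to 0.341 RPM over the libraries and covers counting error only. The genes of 21ur-73 and 21ur-3375 overlap other piRNA genes. For 21ur-73, read numbers ended in 0.5 in 23 libraries, the same libraries as for the overlapping 21ur-13340, which had at most 0.434% as many reads. For 21ur-3375 this was so in 21 libraries, the same as for the overlapping 21ur-243, which had at most 0.516% as many reads. No such fractions were seen for 21ur-2545 or 21ur-5059. The other neighbour inside pkd-2, 21ur-15018, had at most 1.32% as many reads as 21ur-73.

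At 0 h in the degron strain, 21ur-3375 was the 3rd most abundant of 14052 piRNAs listed in the courses, 21ur-2545 the 16th, 21ur-73 the 175th and 21ur-5059 the 282nd. At 12 h, 21ur-3375 ranked 1st in both strains. In the disl-2(how27) degron strain at 12 h, 21ur-2545 ranked 4th, 21ur-73 ranked 52nd and 21ur-5059 ranked 219th.

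Of the 4, 21ur-3375 had the shallowest slope in the disl-2(how27) degron strain. In the disl-2(how27) degron strain its libraries were at 163 and 140 RPM at 0 h, 108 and 144 RPM at 2 h, 218 and 207 RPM at 4 h, 177 and 212 RPM at 6 h, and 139 and 129 RPM at 12 h. In the degron strain they were at 257 and 274 RPM at 0 h, 217 and 138 RPM at 2 h, 192 and 227 RPM at 4 h, 186 and 200 RPM at 6 h, and 152 and 174 RPM at 12 h. At 0 h, both libraries of the disl-2(how27) degron strain were below those of the degron strain, while the 4 h and 6 h libraries of the 2 strains overlapped. The slope of log2(RPM + 0.5) on hours was -0.0054 ± 0.028 per h (SE, n = 10 libraries) in the disl-2(how27) degron strain and -0.043 ± 0.020 per h in the degron strain. A half-life is given only where a slope lay more than 2 SE below 0, which held in the degron strain, at 23.2 h.

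The course of 21ur-2545 had a similar outline. With disl-2(how27), the degron strain's libraries were at 120 and 99.1 RPM at 0 h, 108 and 118 RPM at 2 h, 144 and 140 RPM at 4 h, 131 and 138 RPM at 6 h, and 93.1 and 79.6 RPM at 12 h. In the degron strain they were at 147 and 126 RPM at 0 h, 110 and 98.3 RPM at 2 h, 108 and 114 RPM at 4 h, 118 and 98.8 RPM at 6 h, and 90.1 and 89.3 RPM at 12 h. All libraries of the disl-2(how27) degron strain at 4 h and 6 h were above those of the degron strain. The slopes were -0.030 ± 0.020 per h in the disl-2(how27) degron strain and -0.040 ± 0.011 per h in the degron strain, where the half-life was 25.0 h.

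The level of 21ur-73 fell to 61.8% of its 0 h mean by 12 h in the disl-2(how27) degron strain and to 71.5% in the degron strain. Its libraries in the disl-2(how27) degron strain were at 52.5 and 56.9 RPM at 0 h, 44.3 and 44.8 RPM at 2 h, 52.9 and 53.8 RPM at 4 h, 39.7 and 36.8 RPM at 6 h, and 36.7 and 30.9 RPM at 12 h. In the degron strain they were at 46.9 and 46.9 RPM at 0 h, 51.7 and 61.4 RPM at 2 h, 40.6 and 45.2 RPM at 4 h, 42.7 and 43.0 RPM at 6 h, and 32.2 and 34.9 RPM at 12 h. Its slopes lay within 1 SE of each other, at -0.056 ± 0.013 per h (half-life 17.9 h) in the disl-2(how27) degron strain and -0.050 ± 0.012 per h (half-life 20.0 h) in the degron strain.

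The level of 21ur-5059 gave the steepest slope of the 4 in the degron strain. Libraries of the disl-2(how27) degron strain held 24.1 and 21.6 RPM at 0 h, 23.1 and 17.4 RPM at 2 h, 18.3 and 19.1 RPM at 4 h, 13.6 and 15.5 RPM at 6 h, and 14.0 and 18.2 RPM at 12 h. In the degron strain they were at 33.1 and 32.9 RPM at 0 h, 30.0 and 27.5 RPM at 2 h, 17.8 and 22.4 RPM at 4 h, 21.1 and 14.9 RPM at 6 h, and 13.0 and 12.4 RPM at 12 h. Libraries of the disl-2(how27) degron strain were below those of the degron strain at 0 h and above them at 12 h. Its slopes were -0.043 ± 0.016 per h (half-life 23.5 h) in the disl-2(how27) degron strain and -0.114 ± 0.016 per h (half-life 8.81 h) in the degron strain.

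**Figure D1:**
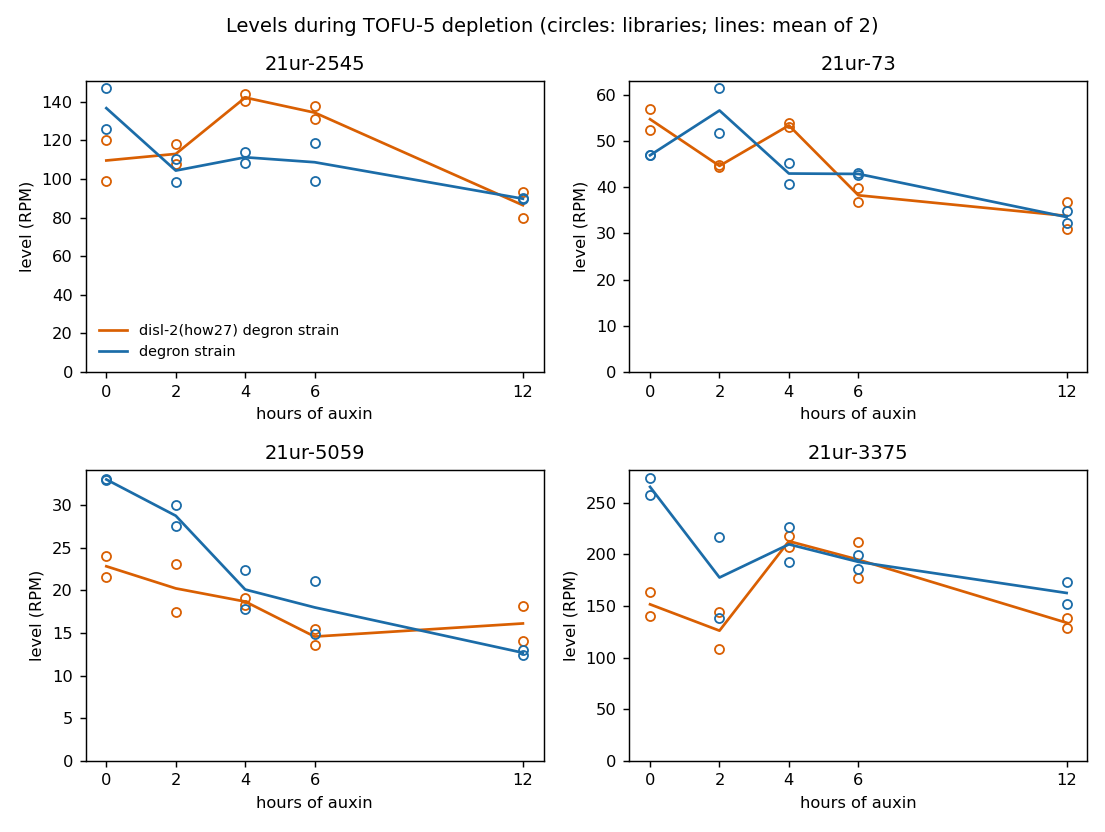
Level in RPM of each of the 4 piRNAs against hours of auxin in the disl-2(how27) degron strain (orange) and the degron strain (blue), with circles for single libraries and lines for the mean of 2. By 12 h, 21ur-3375 averaged 88.2% of its 0 h level in the disl-2(how27) degron strain and 61.3% in the degron strain, while 21ur-5059 averaged 70.6% in the disl-2(how27) degron strain and 38.4% in the degron strain.

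The 4 slopes were spread widely among those of the 4112 piRNAs whose mean over the 20 course libraries was 1 RPM or more. With disl-2(how27), the median slope was -0.072 per h over all piRNAs tested and -0.036 per h over the 4, and a shallower or rising slope was found for 4.74% of piRNAs beside 21ur-3375, 14.5% beside 21ur-2545, 22.8% beside 21ur-5059 and 33.6% beside 21ur-73. In the degron strain the median was -0.105 per h over all and -0.047 per h over the 4, and these shares were 12.7% for 21ur-3375, 11.8% for 21ur-2545, 56.6% for 21ur-5059 and 14.8% for 21ur-73. The median piRNA kept 49.8% of its level at 12 h in the disl-2(how27) degron strain and 35.8% in the degron strain. The piRNA 21ur-1 had a slope of -0.069 ± 0.021 per h in the disl-2(how27) degron strain and -0.109 ± 0.016 per h in the degron strain.

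Among piRNAs at least as abundant at 0 h as 21ur-5059, 4 of 313 had a shallower slope than 21ur-3375 in the disl-2(how27) degron strain, and 19 of 282 had a shallower slope than 21ur-2545 in the degron strain. The shallowest in both were 21ur-2686 and 21ur-9424, whose levels ran upward. These 2 had nearly equal levels, at 47.8 and 47.9 RPM at 0 h in the disl-2(how27) degron strain, and were counted separately. For 21ur-2686 the 12 h mean was 84.9 RPM against 47.8 RPM at 0 h in the disl-2(how27) degron strain, and 126 RPM at 12 h against 60.0 RPM at 0 h in the degron strain. The next 3 in slope order after 21ur-3375 in the disl-2(how27) degron strain were 21ur-15664, 21ur-1129 and 21ur-2152, with slopes between -0.0086 and -0.010 per h. Of these, 21ur-15664 and 21ur-1129 had the same 12 h mean of 39.0 RPM. Whether piRNAs with such equal levels share reads was not tested. In the degron strain 21ur-2545 was followed by 21ur-3375, itself one of the 4, at -0.043 per h. The next 3 outside the 4 were 21ur-5450, 21ur-1122 and 21ur-4866, each with a slope of -0.045 per h. In the disl-2(how27) degron strain the median slope was -0.036 per h over the 4 and -0.076 per h over the 313 piRNAs at least this abundant. It was -0.047 per h over the 4 and -0.124 per h over the 282 in the degron strain.

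In the disl-2(how27) degron strain, 21ur-3375 lay 0.49 and 21ur-2545 lay 0.38 above their 0 h level on the log2 scale at 4 h, where the median piRNA lay at -0.18. Without the 12 h libraries the median slope of the 4 in that strain was -0.0012 per h, and without replicate 1 it was -0.024 per h. RPM are scaled to library depth. When each library was instead rescaled to an equal median piRNA, all 4 slopes were above 0 in both strains, between 0.029 and 0.081 per h in the disl-2(how27) degron strain and between 0.0054 and 0.081 per h in the degron strain. This rescaling takes out the fall shared by most piRNAs. The median slope over all piRNAs tested was then 0.0002 per h in the disl-2(how27) degron strain and -0.0050 per h in the degron strain. Rescaled slopes are therefore relative to the median piRNA and do not show that levels rose. Of total piRNA RPM in the degron strain, 21ur-5059 made up 0.0661% at 12 h and 0.0683% at 0 h, averaged over 2 libraries. Summed, the 4 made up 1.31% and 1.32% of total piRNA RPM at 12 h, against 1.07% and 0.734% at 0 h, in the disl-2(how27) degron strain. In the degron strain they made up 1.54% and 1.56% at 12 h, against 1.08% and 0.915% at 0 h.

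**Figure D2:**
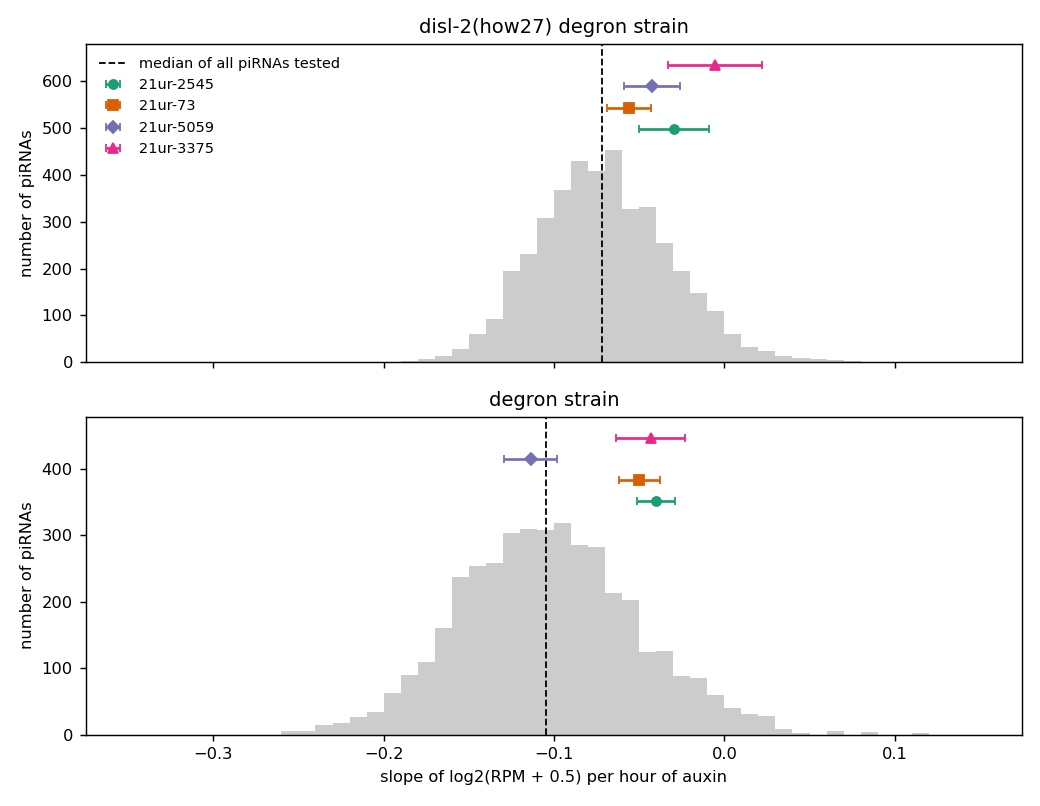
Slope of log2(RPM + 0.5) per hour of auxin for the 4112 piRNAs tested (grey histogram, number of piRNAs) in the disl-2(how27) degron strain (top) and the degron strain (bottom), with the 4 piRNAs as coloured symbols with their SE and the median as a dashed line. Symbol height has no meaning. All 4 symbols lie to the right of the median in the disl-2(how27) degron strain, and in the degron strain 21ur-5059 lies to its left.

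The description of the list names the depletion courses and not the steady-state libraries. That these libraries took no part in the choice was not recorded, and the tests below carry that limit. Each steady-state comparison was tested with limma over every piRNA whose mean reached 1 RPM. All 4 passed this minimum in every comparison, but 21ur-5059 passed it in the parn-1 comparison only through the double, where it was higher. A piRNA rose or fell where the adjusted p was under 0.05. None of the 4 passed the test in every comparison. The minimum level bears on the calls: with no filter on low values, 0 of the 4 were called in the henn-1 and parn-1 comparisons and in both pup-1 doubles against pup-1, and calls were also lost for 21ur-3375 in disl-2(tm5337) (adjusted p = 0.172) and in the pup-1 disl-2(tm5337) double against the paired control (adjusted p = 0.0782) and for 21ur-5059 in pup-1 (adjusted p = 0.0665).

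Without DISL-2 alone, the outcome differed between the alleles. In disl-2(how27), 0 of the 4 changed against the isogenic control, while 20.7% of 5618 piRNAs tested were called. At an unadjusted p under 0.05 the count was also 0, and limma voom called 0 as well. In disl-2(tm5337), 1 of the 4 rose and 2 fell against the same control, while 40.4% of the 5618 were called. The 2 comparisons share their control libraries.

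In disl-2(tm5337), 21ur-3375 was at 404 and 492 RPM, against 325 and 251 RPM in the isogenic control. Both mutant libraries were above both controls, and the piRNA rose by 0.64 ± 0.18 on the log2 scale (adjusted p = 0.00363). The level of 21ur-73 was 93.4 and 96.4 RPM in disl-2(tm5337), against 160 and 154 RPM in the control, a fall without overlap (log2 -0.72 ± 0.19, adjusted p = 0.00215). The level of 21ur-5059 was 17.7 and 15.8 RPM in disl-2(tm5337), against 27.2 and 27.6 RPM in the control (log2 -0.70 ± 0.23, adjusted p = 0.0138). For 21ur-2545, 133 and 103 RPM in disl-2(tm5337) stood against 156 and 159 RPM in the control, and the test was not passed (log2 -0.43 ± 0.19, adjusted p = 0.0728). Without disl-2(tm5337) replicate 2 the calls for 21ur-3375 and 21ur-5059 were lost (adjusted p = 0.129 and 0.0526), and the call for 21ur-5059 was lost without either control library (adjusted p = 0.066 and 0.0721). Without disl-2(tm5337) replicate 1, 21ur-2545 passed (adjusted p = 0.0454). The median piRNA lay at -0.19, and after rescaling, which moved it by 0.12, the fall of 21ur-73 was no longer called (log2 -0.57, adjusted p = 0.0709). With 1 fit over all steady-state libraries the calls for 21ur-3375 and 21ur-5059 were lost (adjusted p = 0.136 and 0.0885).

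In disl-2(how27) the levels were nearer to the control. The piRNA 21ur-2545 was at 184 and 201 RPM (log2 0.29 ± 0.19, adjusted p = 0.252) and 21ur-5059 at 37.3 and 36.3 RPM (log2 0.42 ± 0.23, adjusted p = 0.169), both without overlap with the control. The piRNA 21ur-73 was at 146 and 147 RPM, below the control and also without overlap (log2 -0.09 ± 0.19, adjusted p = 0.712). The level of 21ur-3375, at 266 and 316 RPM, overlapped the control (log2 0.02 ± 0.18, adjusted p = 0.929). The median piRNA lay at 0.47 in disl-2(how27). Rescaling to equal medians moved that median by -0.51 and turned the direction of 21ur-2545, 21ur-5059 and 21ur-3375 to -0.29, -0.15 and -0.56, none of which passed the test.

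The 2 alleles were also compared directly, a contrast added after the data were seen. All 4 differed between disl-2(tm5337) and disl-2(how27), where 55.3% of piRNAs did. The piRNA 21ur-3375 was higher in disl-2(tm5337) by 0.62 ± 0.18 (adjusted p = 0.00322), whereas 21ur-2545 was lower by 0.71 ± 0.19 (log2 -0.71, adjusted p = 0.00144), 21ur-73 by 0.63 (log2 -0.63 ± 0.19, adjusted p = 0.00509) and 21ur-5059 by 1.12 (log2 -1.12 ± 0.23, adjusted p = 5.1e-05). After rescaling, which moved the median by 0.64, only the higher level of 21ur-3375 passed (log2 1.35, adjusted p = 6.3e-04), 21ur-5059 lay at -0.39, and 21ur-2545 and 21ur-73 turned to 0.02 and 0.11. Without disl-2(tm5337) replicate 2 the calls for 21ur-2545 and 21ur-3375 were lost, as was that for 21ur-3375 without disl-2(how27) replicate 1 and that for 21ur-73 without either disl-2(how27) library.

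**Figure D3:**
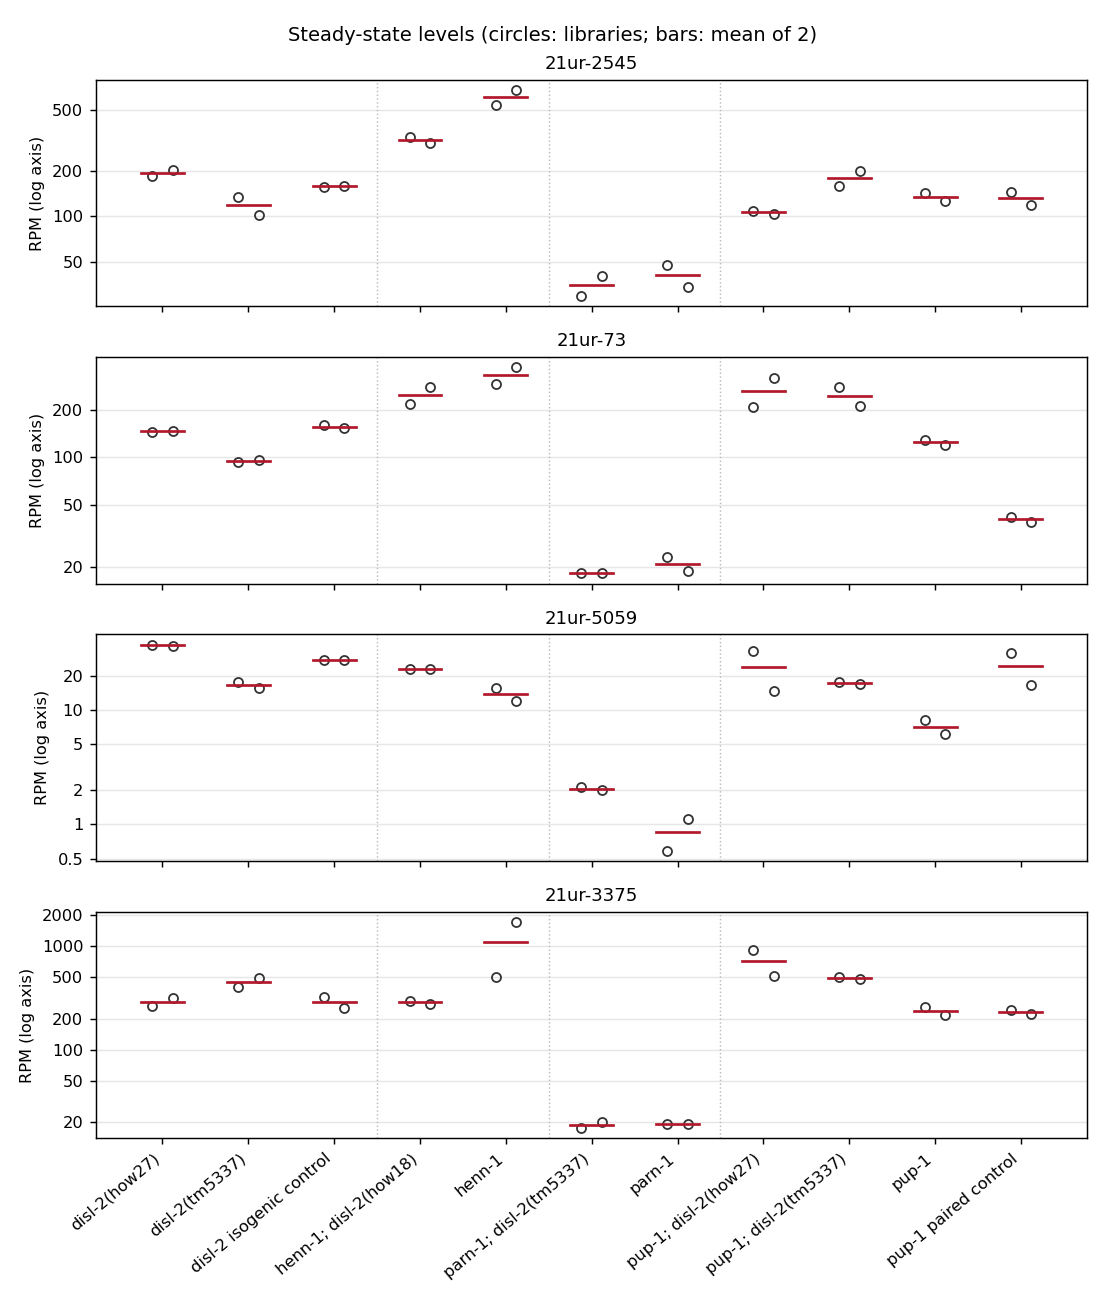
Level of each of the 4 piRNAs in RPM, on log axes, in the 11 steady-state groups, with circles for single libraries, bars for the mean of 2, and dotted lines between experiments. Levels in the parn-1 libraries and their disl-2(tm5337) double are the lowest for all 4, and 21ur-73 differs between the 2 control groups, at 157 RPM in the isogenic control and 40.4 RPM in the pup-1 paired control.

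In animals without the methyltransferase HENN-1, 2 of the 4 fell when disl-2(how18) was added, while 27.7% of 8769 piRNAs were called. The level of 21ur-2545 was 332 and 303 RPM in the henn-1 disl-2(how18) double, against 544 and 680 RPM in henn-1 (log2 -0.94 ± 0.27, adjusted p = 0.0391). The level of 21ur-3375 was 295 and 279 RPM in the double, against 504 and 1718 RPM in henn-1 (log2 -1.70 ± 0.52, adjusted p = 0.0473). Libraries did not overlap for either, and the 2 henn-1 libraries of 21ur-3375 were themselves far apart. Its change was -2.58 against the 1718 RPM library alone and -0.81 against the 504 RPM library alone. Such fits hold no spread between henn-1 libraries, so only their effect sizes are given. Both calls were lost without either library of the double, with adjusted p between 0.0688 and 0.431. The level of 21ur-73 was 218 and 278 RPM in the double, against 292 and 373 RPM in henn-1 (log2 -0.42 ± 0.29, adjusted p = 0.285). That of 21ur-5059 was 22.8 and 22.8 RPM in the double, against 15.5 and 11.9 RPM in henn-1 (log2 0.72 ± 0.27, adjusted p = 0.0758). With a pseudocount of 0.1 RPM or a minimum mean of 5 RPM, 21ur-3375 was no longer called (adjusted p = 0.0544 and 0.0586). The change of 21ur-5059 was 0.91 against the 11.9 RPM henn-1 library alone and 0.54 against the 15.5 RPM library alone. The other 3 stayed lower in the double against either henn-1 library. The median piRNA lay at 0.12, and rescaling moved it by -0.22 without changing a call or a direction among the 4.

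In animals without the trimming nuclease PARN-1, 1 of the 4 rose when disl-2(tm5337) was added, while 34.5% of 4039 piRNAs were called. This was 21ur-5059, at 2.11 and 1.99 RPM in the parn-1 disl-2(tm5337) double, against 0.587 and 1.11 RPM in parn-1 (log2 0.95 ± 0.32, adjusted p = 0.0131). Its mean in parn-1, 0.849 RPM, was below the minimum of 1 RPM. It reached that minimum only through the double, at 2.05 RPM, so the call is not independent of the filter. Libraries did not overlap, and the call was lost without parn-1 replicate 1 (log2 0.66, adjusted p = 0.277). The other 3 did not pass, and rescaling, which moved the median by -0.23, changed no call or direction. The level of 21ur-2545 was 29.8 and 40.6 RPM in the double, against 47.9 and 34.2 RPM in parn-1 (adjusted p = 0.436). That of 21ur-73 was 18.4 and 18.4 RPM in the double, against 23.4 and 18.9 RPM in parn-1 (adjusted p = 0.599), and that of 21ur-3375 was 17.4 and 19.8 RPM in the double, against 18.9 and 19.1 RPM in parn-1 (adjusted p = 0.932). In 21ur-5059 the effect of disl-2(tm5337) was higher with parn-1 absent than in the single mutant, by 1.64 ± 0.44 (adjusted p = 0.00596), in a contrast that called 27.6% of piRNAs and was added after the data were seen.

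In animals without the poly(U) polymerase PUP-1, 21ur-73 and 21ur-5059 moved in opposite directions against the paired control, so that 1 of the 4 rose and 1 fell, while 58% of 5120 piRNAs were called. The level of 21ur-73 was 129 and 121 RPM in pup-1, against 41.8 and 39.0 RPM in the control (log2 1.62 ± 0.27, adjusted p = 1.3e-05). The level of 21ur-5059 was 8.17 and 6.12 RPM in pup-1, against 31.9 and 16.5 RPM in the control (log2 -1.63 ± 0.34, adjusted p = 2.2e-04). Neither pair of groups overlapped. In the isogenic control of the disl-2 experiment, 21ur-73 averaged 157 RPM, above its level in pup-1. What part the low level in the paired control had in its rise was not tested. The level of 21ur-2545 was 142 and 126 RPM in pup-1, against 145 and 119 RPM in the control (log2 0.03 ± 0.26, adjusted p = 0.93). That of 21ur-3375 was 257 and 215 RPM in pup-1, against 241 and 219 RPM in the control (log2 0.04 ± 0.26, adjusted p = 0.915), and for both of these the groups overlapped. The median piRNA lay at -0.78. After rescaling, which moved it by 0.72, 21ur-2545 and 21ur-3375 were called as higher (log2 0.86 and 0.87, adjusted p = 0.00708 and 0.00901) and the fall of 21ur-5059 was no longer called (log2 -0.83, adjusted p = 0.0665).

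Loss of DISL-2 in pup-1 animals went with higher levels of 3 of the 4 piRNAs, 21ur-73, 21ur-5059 and 21ur-3375, for both disl-2 alleles, while 42.1% of piRNAs were called for disl-2(how27) and 33.4% for disl-2(tm5337). The 2 comparisons share the pup-1 libraries. The level of 21ur-3375 was 920 and 516 RPM in the pup-1 disl-2(how27) double (log2 1.55 ± 0.26, adjusted p = 5.0e-05) and 501 and 478 RPM in the pup-1 disl-2(tm5337) double (log2 1.05 ± 0.26, adjusted p = 0.00353), both above the pup-1 libraries. That of 21ur-73 was 210 and 318 RPM in the pup-1 disl-2(how27) double (log2 1.05 ± 0.27, adjusted p = 0.00272) and 281 and 211 RPM in the pup-1 disl-2(tm5337) double (log2 0.96 ± 0.27, adjusted p = 0.00733). That of 21ur-5059 was 32.9 and 14.8 RPM in the pup-1 disl-2(how27) double (log2 1.58 ± 0.34, adjusted p = 5.8e-04) and 17.5 and 16.9 RPM in the pup-1 disl-2(tm5337) double (log2 1.22 ± 0.34, adjusted p = 0.00734). All libraries of both doubles were above both pup-1 libraries for these 3.

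The level of 21ur-2545 was 108 and 104 RPM in the pup-1 disl-2(how27) double (log2 -0.33 ± 0.26, adjusted p = 0.301) and 159 and 199 RPM in the pup-1 disl-2(tm5337) double (log2 0.41 ± 0.26, adjusted p = 0.218), neither passing the test. Rescaling moved the median by -0.06 and -0.11 and changed no call in either comparison. Leaving out any 1 library changed no call for disl-2(how27), but the change of 21ur-5059 was 1.01 without replicate 1 of that double (adjusted p = 0.00803). For disl-2(tm5337), all 3 calls were lost without pup-1 replicate 2 (adjusted p between 0.0559 and 0.103), and those of 21ur-73 and 21ur-5059 without replicate 1 of the double (adjusted p = 0.115 and 0.0558).

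Against the paired control, 21ur-73 and 21ur-3375 rose in both doubles, 2 of the 4 in each, while 59.6% and 52.1% of piRNAs were called. For 21ur-73 the rise was 2.66 ± 0.27 in the pup-1 disl-2(how27) double (adjusted p = 4.8e-09) and 2.58 ± 0.27 in the pup-1 disl-2(tm5337) double (adjusted p = 2.3e-08). For 21ur-3375 it was 1.58 ± 0.26 in the pup-1 disl-2(how27) double (adjusted p = 1.1e-05) and 1.09 ± 0.26 in the pup-1 disl-2(tm5337) double (adjusted p = 0.00107). For 21ur-73 the base of both rises was the paired control at 40.4 RPM, against 157 RPM in the isogenic control. The levels of 21ur-5059 in both doubles overlapped those of the control (log2 -0.06 ± 0.34 and -0.41 ± 0.34, adjusted p = 0.895 and 0.32), and 21ur-2545 did not pass in either (adjusted p = 0.309 and 0.149). Rescaling moved the median by 0.66 and 0.61, turned 21ur-5059 upward in both doubles (0.69 and 0.27, neither called) and turned 21ur-2545 upward in the pup-1 disl-2(how27) double (0.46, not called). In the pup-1 disl-2(tm5337) double it made 21ur-2545 a called rise (1.14, adjusted p = 8.9e-04).

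The effect of disl-2 in pup-1 animals was then set against its effect alone, again in contrasts added after the data were seen. For disl-2(tm5337) the effect was higher with pup-1 absent by 1.68 ± 0.35 for 21ur-73 (adjusted p = 2.7e-04) and by 1.92 ± 0.44 for 21ur-5059 (adjusted p = 8.0e-04), where 42.2% of piRNAs were called. These 2 calls held when any 1 of the 8 libraries was left out. For disl-2(how27) it was higher by 1.14 ± 0.35 for 21ur-73 (adjusted p = 0.0219) and by 1.52 ± 0.47 for 21ur-3375 (adjusted p = 0.0206), where 19.3% were called, and 21ur-5059 did not pass (log2 1.16 ± 0.44, adjusted p = 0.0616). It passed after rescaling, which moved the median by 0.45 (log2 1.73, adjusted p = 0.0069), with the replicate block (adjusted p = 0.0434), with limma voom (adjusted p = 0.043) and without replicate 2 of the double (log2 1.72, adjusted p = 0.0098). The call for 21ur-73 was lost without disl-2(how27) replicate 1 or 2, pup-1 replicate 1 or 2, isogenic control replicate 1 or replicate 2 of the double, with adjusted p up to 0.13. The call for 21ur-3375 was lost without disl-2(how27) replicate 1, pup-1 replicate 2, isogenic control replicate 1 or replicate 1 of the double, with adjusted p up to 0.0988.

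**Figure D4:**
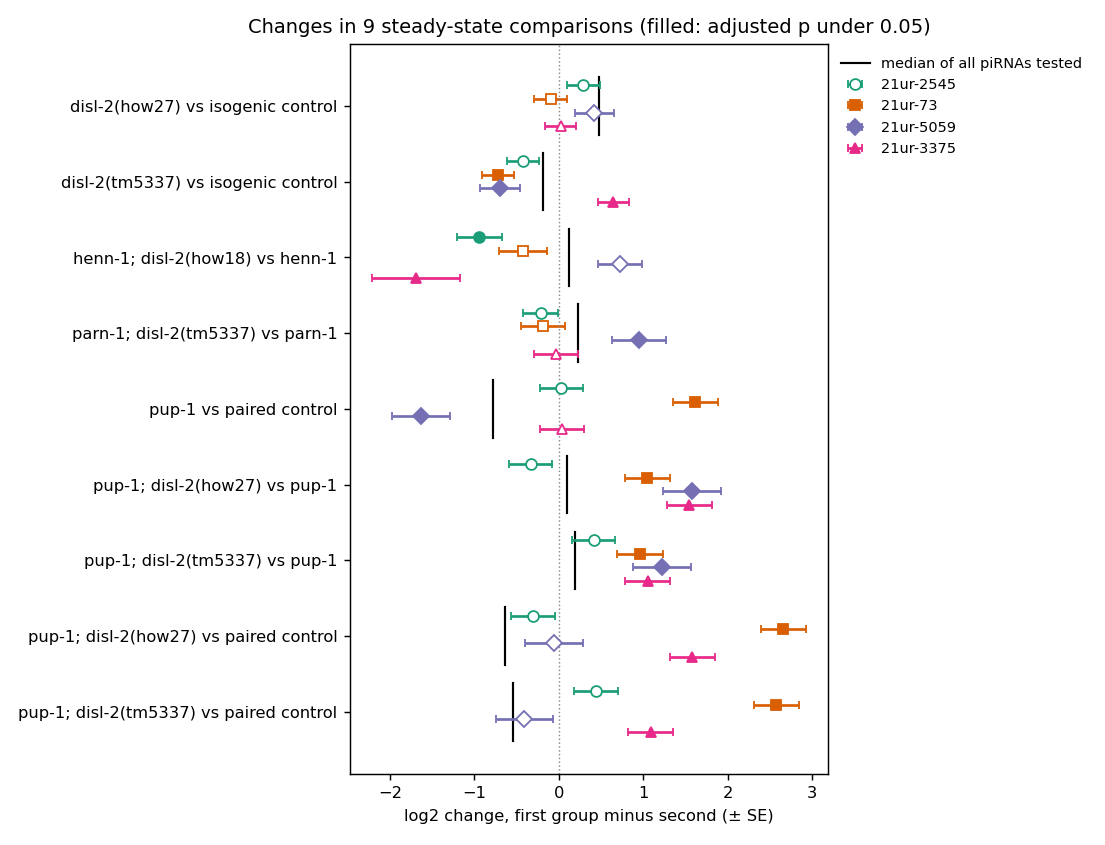
Log2 change with its SE of each of the 4 piRNAs in the 9 steady-state comparisons, the group named first minus the group named second, with filled symbols where the adjusted p was under 0.05 and a black bar at the median of all piRNAs tested. The 3 called rises in each pup-1 double against pup-1 lie at 0.96 to 1.58, and 21ur-2545 is filled only in the henn-1 comparison.

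Over the 11 steady-state groups, the order of levels differed among the 4. The levels of 21ur-2545 were highest in henn-1 (612 ± 96.5 RPM, SD, n = 2) and in the henn-1 disl-2(how18) double (317 ± 20.5 RPM), without overlap between them. The 7 groups from disl-2(how27), at 193 RPM, to the pup-1 disl-2(how27) double, at 106 RPM, followed, some neighbours overlapping and others not, and parn-1 (41.1 RPM) and its double (35.2 RPM) overlapped at the low end. For 21ur-73 the 4 highest groups were henn-1 (332 ± 57.6 RPM), the pup-1 disl-2(how27) double (264 ± 76.2 RPM), the henn-1 disl-2(how18) double (248 ± 42.9 RPM) and the pup-1 disl-2(tm5337) double (246 ± 49.5 RPM), each overlapping the next. Below them every neighbour was apart, down to 21.1 RPM in parn-1 and 18.4 RPM in its double.

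For 21ur-5059 the highest group was disl-2(how27) (36.8 ± 0.762 RPM), apart from the isogenic control (27.4 ± 0.244 RPM), which overlapped the pup-1 paired control (24.2 ± 10.9 RPM). The lowest were pup-1 (7.14 ± 1.45 RPM), the parn-1 disl-2(tm5337) double (2.05 ± 0.0892 RPM) and parn-1 (0.849 ± 0.370 RPM), none of which overlapped. For 21ur-3375 the highest was henn-1 (1111 ± 858 RPM), which overlapped the pup-1 disl-2(how27) double (718 ± 285 RPM), and the lowest were parn-1 (19.0 ± 0.129 RPM) and its double (18.6 ± 1.70 RPM), which overlapped. In the pup-1 disl-2(how27) double, 21ur-3375 was the 2nd most abundant piRNA and made up 1.09% ± 0.405 (SD, n = 2) of piRNA RPM, against 0.512% ± 0.00745 in pup-1. In parn-1 it ranked 230th and made up 0.0813% ± 0.0107.

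Across the 22 steady-state libraries, the levels of the 4 on the log2(RPM + 0.5) scale were correlated with one another at Pearson r of 0.68 to 0.88. These correlations share the libraries, their depth and the groups, and are given as a description. Among 3164 piRNAs averaging 5 RPM or more, those most like 21ur-2545 were 21ur-5185, 21ur-3124 and 21ur-14409 (r = 0.98, 0.97 and 0.97), all of the authors' class Oogenic, against a median r of 0.79 over all. Of these, 21ur-3124 and 21ur-14409 are on the same clone and had nearly equal means, 25.57 and 25.59 RPM, so they may not be separate cases. Most like 21ur-73 were 21ur-5450, 21ur-6253 and 21ur-450 (r = 0.95, 0.94 and 0.94, median 0.63). Most like 21ur-5059 were 21ur-6355, 21ur-5371 and 21ur-8039 (r = 0.98, 0.97 and 0.97, median 0.61), of which 21ur-6355 and 21ur-8039 share its class Spermatogenic. Most like 21ur-3375 were 21ur-1800, 21ur-5041 and 21ur-6356 (r = 0.99, 0.98 and 0.98, median 0.61).

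Other piRNAs of the same clones and classes give the setting of these changes. Of the other Spermatogenic piRNAs, the class of 21ur-5059, 725 rose and 61 fell of 1676 in the pup-1 disl-2(how27) double against pup-1, with a median log2 change of 0.59 against 0.09 over all piRNAs tested. Over all piRNAs, 1302 rose and 853 fell of 5120 there. In the pup-1 disl-2(tm5337) double against pup-1, 557 rose and 47 fell of 1676 (median 0.44 against 0.19 over all), and in the parn-1 disl-2(tm5337) double against parn-1, 435 rose and 17 fell of 1064 (median 0.62 against 0.22). Over all piRNAs, 1218 rose and 490 fell of 5120 in this pup-1 comparison, and 989 rose and 405 fell of 4039 in the parn-1 comparison. In disl-2(tm5337) against the isogenic control, 146 rose and 582 fell of 1903 (median -0.32 against -0.19), while 760 rose and 1511 fell of 5618 over all. In pup-1 against the paired control, where 21ur-5059 fell, 111 rose and 681 fell of 1676 (median -0.54 against -0.78 over all), while 244 rose and 2727 fell of 5120 over all. These 5 are the comparisons in which 21ur-5059 was called, each time in the direction of the class median. That median was further from 0 than the median of all piRNAs in the first 4 and nearer to 0 in pup-1. In the parn-1 comparison, 21ur-5059 reached the minimum of 1 RPM only through the double, so that call is not an independent match to its class. The class counts there went through the same minimum. In the remaining comparisons 21ur-5059 was not called. The class median was 0.58 in disl-2(how27), where 542 rose and 0 fell of 1903. Over all piRNAs it was 0.47 there, and 1160 rose and 2 fell of 5618. In the henn-1 comparison the class median was 0.31, against 0.12 over all. Against the paired control the class median was 0.14 in the pup-1 disl-2(how27) double (-0.64 over all) and -0.02 in the pup-1 disl-2(tm5337) double (-0.55 over all). There 21ur-5059 lay at -0.06 and -0.41.

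For the neighbours of 21ur-3375 on clone Y105C5B, 147 rose and 97 fell of 539 in the pup-1 disl-2(how27) double against pup-1 (median 0.16, against 0.09 over all piRNAs tested). In disl-2(tm5337) against the isogenic control, 69 of them rose and 164 fell of 580 (median -0.27, against -0.19 over all), where 21ur-3375 itself rose. For those of 21ur-73 on clone Y73F8A, 20 rose and 205 fell of 423 in pup-1 against the paired control (median -0.69), where 21ur-73 itself rose. Over all piRNAs, 244 rose and 2727 fell of 5120 there (median -0.78). In disl-2(tm5337), where 21ur-73 fell, 71 of these neighbours rose and 103 fell of 455 (median -0.16, against -0.19 over all). For those of 21ur-2545 on clone Y41E3, 37 rose and 31 fell of 301 in the henn-1 disl-2(how18) double against henn-1 (median 0.03, against 0.12 over all), where 21ur-2545 itself fell. Over all piRNAs in that comparison, 1553 rose and 876 fell of 8769. There 21ur-3375 also fell, and 78 of its Y105C5B neighbours rose and 145 fell of 877 (median -0.14). For those of 21ur-5059 on clone Y105C5A, 86 rose and 90 fell of 464 in the pup-1 disl-2(how27) double against pup-1. Their median was -0.07, against 0.09 over all, where 21ur-5059 itself rose. In both of these cases the clone median had the opposite sign to the median over all piRNAs. The other clone medians given here had its sign. Clone counts of further comparisons are not given.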

How the data were processed

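Small RNAs were enriched from total RNA, and the phosphatase PIR-1 was used on them ahead of adapter ligation, per the labels' protocols. The deposited values are RPM per piRNA, scaled by the authors to the depth of each library, per the labels. Trim Galore and Bowtie are named in the submitters' processing notes, without versions. Genome build and counting rules are not given in the sources used here. The table had 14681 rows, and 1 entry listed more than once left 14680 piRNAs. Depth was read from the RPM worth of 1 read in each library. Between 85.8% and 88.2% of values above 0 were whole reads at a tolerance of 0.01 read, so the table was not treated as counts. The other 10 samples (mRNA, and pup-2, pup-3 or pup-1 pup-2 mutants) were not analysed here.

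The 4 piRNAs, the lists and the tests were chosen with earlier results of these data known. Steady-state values were taken as log2(RPM + 0.5) and fitted in R 4.3.3 with limma 3.58.1, whose prior variance followed the mean level. Each fit kept piRNAs averaging 1 RPM or more in its libraries, and p-values were adjusted by Benjamini-Hochberg over all of them. That scale understates the change of low piRNAs. The 3 groups of the disl-2 experiment were fitted together, and so were the 4 of the pup-1 experiment. Much of the spread in each fit is borrowed from other piRNAs, with prior and residual degrees of freedom of 62.6 and 3 for disl-2, 5.57 and 2 for henn-1, 1825 and 2 for parn-1, and 24.7 and 4 for pup-1. Differences between disl-2 effects came from limma contrasts, those across experiments in 1 fit over the 22 steady-state libraries. Time-course slopes are least-squares fits over 10 libraries per strain, with no test. The fits were tested on simulated data.

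Named beside the 4 are, for each, the 3 piRNAs with the highest correlation over the steady-state libraries at a mean of at least 5 RPM, the next 3 in slope order among piRNAs at least as abundant at 0 h, read as the 3 that follow the shallowest of the 4 (a reading made after the slopes were seen), and 21ur-1. The rising 21ur-2686 and 21ur-9424 were named after their values were seen. Alternatives were a pseudocount of 0.1 or 2 RPM, no filter, a minimum mean of 5 RPM, equal medians by rescaling, a single fit of all steady-state libraries, replicate number as a block, limma voom on reads estimated from RPM, and leaving out each library in turn. No sequence or genome was used here.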

Additional observations from a re-analysis of the deposited data

Results flagged for a closer look

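Effects of disl-2 that differed between alleles or backgrounds, by a limma test of the difference itself, are listed here on the log2 scale. Between the 2 alleles, disl-2(tm5337) minus disl-2(how27) was -0.71 for 21ur-2545, -0.63 for 21ur-73, -1.12 for 21ur-5059 and 0.62 for 21ur-3375. Between backgrounds, the disl-2(how27) effect in pup-1 animals minus that in the single mutant was 1.14 for 21ur-73 and 1.52 for 21ur-3375. The disl-2(tm5337) effect in pup-1 animals minus that in the single mutant was 1.68 for 21ur-73 and 1.92 for 21ur-5059. In parn-1 animals, the disl-2(tm5337) effect minus that in the single mutant was 1.64 for 21ur-5059. In pup-1 animals the doubles carry other pup-1 alleles than the single mutant, and the disl-2 and pup-1 experiments had separate controls, so allele, experiment and background cannot be told apart. The pup-1 paired control does not enter any of these differences. Between the 2 controls, 21ur-73 was 3.88-fold higher in the isogenic control than in the pup-1 paired control. That bears on its rises in pup-1 and both doubles against the paired control, and its part in them was not tested.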

How the results depend on the processing

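Of 435 alternative values for the 36 changes tested, 376 kept direction and side of the threshold, 33 lost a call, 8 gained one and 18 changed direction, and none of those 18 was for a called change. The edgeR and DESeq2 alternatives were not run, because the values are not whole reads. Where a library is left out, the lone remaining one is assumed to vary like the other groups. In the henn-1 comparison, calls made with a single henn-1 library therefore do not measure variation between henn-1 libraries. Over 11 pairs of groups, same-numbered libraries deviated with correlations of -0.33 to 0.27, and 4 were over 0.1. The labels do not say whether equal replicate numbers share a batch, and these correlations cannot settle it. With the replicate block, 1 of the 4 piRNAs was called in the henn-1 comparison, 21ur-2545 was called in disl-2(tm5337) (adjusted p = 0.0388), and no other call of the 9 comparisons changed. In the parn-1 comparison, pairing with crossed numbers, chosen after seeing the data, left the 1 call.

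Depth limits 21ur-5059 in parn-1 most, at 0.587 RPM in its lowest library. Counts of the 4 called moved as follows. With no filter on low values, which adds piRNAs at or near 0 to the fit, they were 0 in henn-1, 0 in parn-1, 1 in pup-1, 0 in each double against pup-1 and 1 in the pup-1 disl-2(tm5337) double against control. With 1 fit over all libraries, 1 was called in disl-2(tm5337). In henn-1, a pseudocount of 0.1 RPM and a mean of at least 5 RPM each gave 1. In parn-1 a mean of at least 5 RPM gave 0, since 21ur-5059 did not pass it. With 1 library left out, the counts ranged from 1 to 4 in disl-2(tm5337), 0 to 4 in henn-1, 0 to 1 in parn-1 and 0 to 3 in the pup-1 disl-2(tm5337) double against pup-1, and were the same in every case for the other 5 comparisons.

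Rescaling to equal medians reversed, in disl-2(how27), 21ur-2545 (-0.29), 21ur-5059 (-0.15) and 21ur-3375 (-0.56), and, against the paired control, 21ur-2545 (0.46) and 21ur-5059 (0.69) in the pup-1 disl-2(how27) double and 21ur-5059 (0.27) in the pup-1 disl-2(tm5337) double. Among differences between disl-2 effects it reversed 21ur-2545 (0.019) and 21ur-73 (0.11) between alleles, and 21ur-2545 (-0.36) and 21ur-73 (-0.032) in parn-1, where leaving out 1 library gave -0.030 to 0.45 for 21ur-2545. Of 224 alternatives for the 16 differences, 191 kept direction and side of the threshold.

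Leaving out 1 library turned the sign of some changes. The ranges over these cases were -0.16 to 0.21 for 21ur-3375 in disl-2(how27), -0.46 to 0.024 for 21ur-2545 and -0.13 to 0.056 for 21ur-3375 in parn-1, -0.11 to 0.17 for 21ur-2545 and -0.094 to 0.16 for 21ur-3375 in pup-1, and, for 21ur-5059 against the paired control, -0.62 to 0.51 in the pup-1 disl-2(how27) double and -0.87 to 0.055 in the pup-1 disl-2(tm5337) double. The median slope of the 4 per h was 0.049 after rescaling and -0.0012 without 12 h in the disl-2(how27) degron strain, and 0.075 after rescaling in the degron strain. With 1 replicate left out it ranged from -0.034 to -0.024 in the disl-2(how27) degron strain and from -0.055 to -0.042 in the degron strain. Rescaling takes out the fall shared by most piRNAs, so the rescaled slopes are relative to the median piRNA. The cause of the other shifts was not tested.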

Other observations

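The following levels cross experiments and are given as values, with no test. The piRNA 21ur-73 averaged 157 RPM in the isogenic control, 40.4 RPM in the pup-1 paired control and 46.9 RPM in the degron strain at 0 h. Its ratio of isogenic control over paired control was 3.88, and 2 of 2680 piRNAs had a higher one, where the median ratio was 0.938. The other 3 piRNAs had ratios of 1.13 to 1.25.

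In henn-1 the median piRNA stood at 3.84 times its level in the isogenic control. The piRNAs 21ur-2545 and 21ur-3375 lay near that, at 3.89 and 3.86 times, and 21ur-73 was at 2.12 times. The piRNA 21ur-5059 was at 0.501 times its control level, and 3950 of 3991 piRNAs had a higher ratio.

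In parn-1 the ratio to the isogenic control was 0.261 for 21ur-2545, 0.135 for 21ur-73, 0.0661 for 21ur-3375 and 0.031 for 21ur-5059, where the median was 0.251. Ratios of 1938 of 2096 piRNAs were higher than that of 21ur-5059.

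At 0 h, the disl-2(how27) degron strain had 0.802 of the degron strain's level of 21ur-2545, 1.17 of its 21ur-73, 0.691 of its 21ur-5059 and 0.571 of its 21ur-3375, where the median was 0.823. For 21ur-3375, 1846 of 1953 piRNAs had a higher ratio.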
